A study of Lithobates pipiens with 72 samples.

Results

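A single transcript of leopard frog tadpoles, Rana_pipiens_Transcript_354027, is described here in every group of a munitions exposure study. Its protein name in the deposited tables is only "cytochrome P450", with the closest protein match in Xenopus laevis at an E-value listed as 0. It is 1 of 19128 rows, 1 of 31 rows named as a cytochrome P450, and the 1 row whose name holds no family or member. It was picked out because its level rose steeply under TNT, so its changes under TNT and under IMX-101 are given as description and carry no test. The exposures to NQ and MeNQ, the steps between doses and the unexposed groups were tested. The steps under TNT and the unexposed groups use libraries that entered the choice, and the steps under IMX-101 may do so. The p-values of these comparisons are limited by that.

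Whole-body RNA was sequenced from Rana pipiens (Lithobates pipiens) tadpoles aged 7 to 10 d when a 96 h exposure in dechlorinated tap water began. TNT (trinitrotoluene, a nitroaromatic explosive) was given at 1.5, 2.3 or 3.4 mg/L and brought into the water from a glass coating left by evaporated acetone. IMX-101, a low-sensitivity explosive mixture of dinitroanisole, NTO and NQ, was given at 10, 20 or 40 mg/L with the pH adjusted with NaOH. NQ (nitroguanidine) was given at 30, 150, 750 or 3750 mg/L, and MeNQ (methylnitroguanidine, NQ with an added methyl group) at 34, 170, 851 or 4225 mg/L. These NQ and MeNQ doses were matched at 0.3, 1.4, 7.2 and 36 mmol/L. Each exposure had its own unexposed control, and doses are nominal. Every one of the 18 groups had 4 libraries, lettered A to D, and a library pooled 5 tadpoles of the same beaker. Library totals ran from 1.67 to 21.7 M counts with a median of 10.8 M. Levels are in CPM, the count scaled to a library of 1 M counts after TMM scaling. A change is the log2 ratio of an exposed group to its own control ± standard error, with 4 libraries per group. Adjusted p comes from edgeR's quasi-likelihood test, corrected by Benjamini and Hochberg's method over all transcripts tested, and the threshold was 0.05.

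Cytochrome P450s are haem enzymes of the endoplasmic reticulum and mitochondria that insert an oxygen atom into lipophilic substrates, with electrons passed on from NADPH. Many act on bile acids, steroids, retinoids and fatty acids, and others take up drugs and pollutants as the opening step of their removal. Genes of this second kind are often transcribed more when a foreign compound binds a receptor such as the aryl hydrocarbon receptor, and the liver and gut are their main sites in vertebrates. The files do not say to which of these kinds the transcript belongs.

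In unexposed tadpoles of the TNT experiment the transcript was scarce. Controls A to D held 5.22, 4.89, 6.18 and 5.95 CPM, from 9, 53, 57 and 53 counts. The 9 counts of control A gave a 95% exact Poisson interval of 2.39 to 9.91 CPM, which covers counting error only and takes in the other 3 controls. At 1.5 mg/L TNT the 4 libraries held 342, 659, 738 and 1177 CPM, a mean of 729 ± 344 (SD, n = 4) against 5.56 ± 0.606 (SD, n = 4) in the control. All 4 lay above every control, the lowest of them 55.3 times the highest control, and 5.27% of transcripts also had all exposed libraries above all controls. By edgeR 2.76% of transcripts passed at this dose. The log2 change was 7.02 ± 0.62, the 54th largest rise of 12648 transcripts tested.

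The mean level was lower at the 2 higher TNT doses, by steps that did not pass the test. At 2.3 mg/L libraries A to D held 335, 1184, 504 and 624 CPM, a mean of 662 ± 368 (SD, n = 4) and a change of 6.88 ± 0.62, where 5.39% of transcripts passed. At 3.4 mg/L they held 793, 236, 225 and 377 CPM, a mean of 408 ± 266 (SD, n = 4) and a change of 6.18 ± 0.60, where 12% passed and 10.2% had all exposed libraries above all controls. The means ran downward with dose while the libraries of the 3 doses overlapped. These groups entered the choice of the transcript, so the p-values of the steps between them rest in part on values used for it. Between 3.4 and 1.5 mg/L the difference was -0.84 ± 0.45 (95% interval -1.81 to 0.14) and did not pass the test (adjusted p = 0.397), where 6.38% of transcripts did. The step from 1.5 to 2.3 mg/L was -0.14 ± 0.45 (adjusted p = 1, with 0% of transcripts past the threshold), and that from 2.3 to 3.4 mg/L was -0.70 ± 0.45 (adjusted p = 0.720, with 0.0712%). With 1 library left out at a time, the step from 1.5 to 2.3 mg/L ran from -0.59 to 0.18, so its sign is not set; it turned without 1.5 mg/L D and without 2.3 mg/L A.

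**Figure D1:**
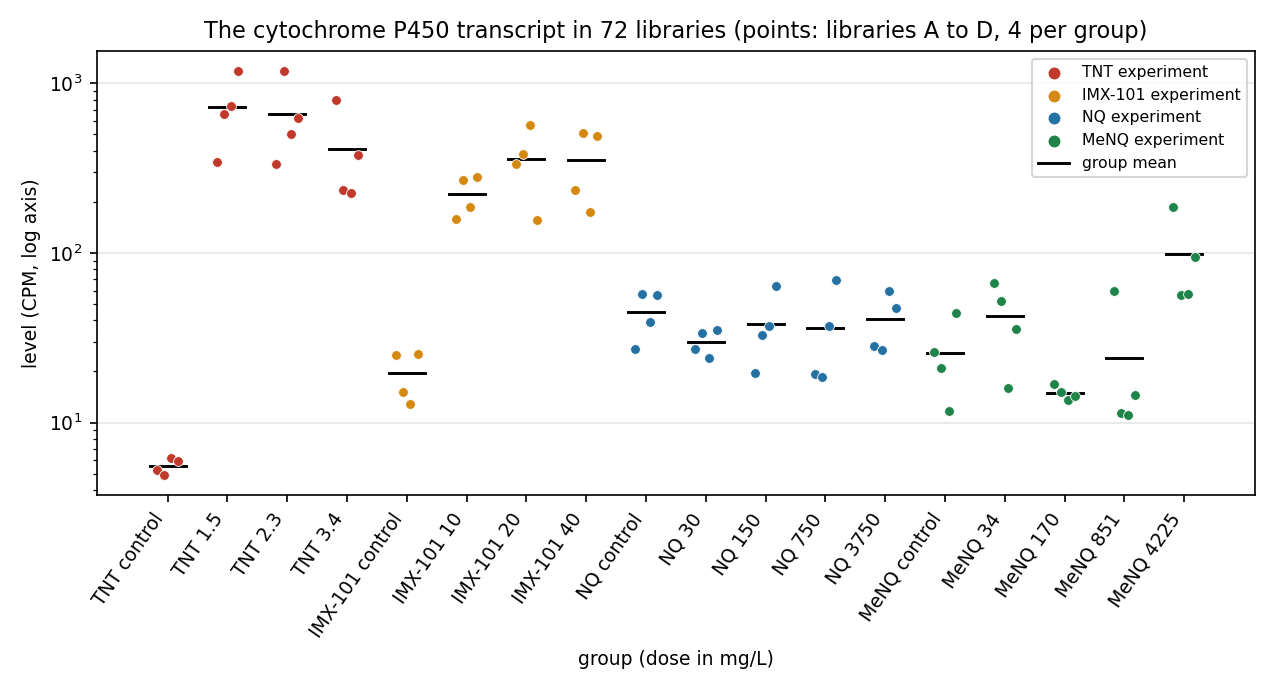
Level of the cytochrome P450 transcript (CPM, log axis) in each of 72 libraries, grouped by exposure and dose in mg/L, with points for libraries and black bars for group means. The 12 exposed TNT libraries sit between 225 and 1184 CPM and the 12 exposed IMX-101 libraries between 157 and 566 CPM, above all 48 other libraries, controls included, except for MeNQ 4225 mg/L A at 186 CPM, which lies among the lower values of the exposed IMX-101 libraries.

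Lanes of the sequencer were mixed over the TNT groups, and lane 4 held libraries of all 4. Within it the 3 controls ran from 4.89 to 5.95 CPM, the 2 libraries at 1.5 mg/L from 342 to 738, the 2 at 2.3 mg/L from 624 to 1184, and the library at 3.4 mg/L stood at 377. With lane as a term the changes were 7.10, 6.91 and 6.18 at the 3 rising doses, close to those without it.

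Under IMX-101 the mean level of the transcript was also above that of the control at each dose. The 4 controls held 25.02, 15.1, 12.9 and 25.2 CPM, a mean of 19.5 ± 6.49 (SD, n = 4). At 10 mg/L the libraries held 159, 268, 188 and 281 CPM, a mean of 224 ± 60.1 (SD, n = 4) and a change of 3.51 ± 0.45. The lowest exposed library was 6.30 times the highest control. Such a gap without overlap was found for 4.5% of transcripts, and 0.989% passed the test.

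At 20 mg/L IMX-101 libraries A to D held 337, 381, 566 and 157 CPM, a change of 4.199 ± 0.46, where 5.21% of transcripts passed. At 40 mg/L they held 237, 509, 173 and 487 CPM, a change of 4.16 ± 0.46, where 7.51% passed. The ranges at 10, 20 and 40 mg/L overlapped. These groups may have entered the choice of the transcript, which limits the p-values of the steps between them. Controls and 10 mg/L were sequenced in lane 8, and 20 and 40 mg/L in lane 1 in a run set of their own, so dose and run set cannot be told apart between these pairs of groups. Within a run set, 40 against 20 mg/L differed by -0.03 ± 0.40 (95% interval -0.89 to 0.83; adjusted p = 0.993), where 0.303% of transcripts passed, and it ran from -0.28 to 0.27 with 1 library left out, turning sign without 20 mg/L C, 40 mg/L A or 40 mg/L C. Across run sets, 40 against 10 mg/L differed by 0.65 ± 0.40 (95% interval -0.21 to 1.51; adjusted p = 0.615), where 1.83% passed.

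NQ, which is also a component of IMX-101, gave no change that passed the test at any dose when given alone. The NQ controls held 27.2, 57.6, 39.0 and 56.7 CPM, a mean of 45.1 ± 14.7 (SD, n = 4). The 4 libraries at 3750 mg/L held 28.2, 26.8, 59.4 and 47.6 CPM and overlapped the controls. Their change was -0.16 ± 0.42 (95% interval -1.04 to 0.72; adjusted p = 0.942), in a comparison where 4.48% of transcripts passed. With 1 library left out the change ran from -0.39 to 0.02, the values above 0 coming without control B or without 3750 mg/L B. The interval of the full set ended at 0.72, below the changes described under TNT and IMX-101, whose controls had lower means. The difference between NQ and those exposures was not tested.

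At the lower NQ doses the libraries overlapped the controls, and some lay below or above all of them. The libraries at 30 mg/L held 27.0, 33.7, 24.1 and 35.4 CPM, a change of -0.58 ± 0.42 (adjusted p = 0.815). At 150 mg/L they held 19.5, 32.9, 37.3 and 63.6 CPM (-0.23 ± 0.42, adjusted p = 1). At 750 mg/L they held 19.3, 18.7, 36.9 and 69.2 CPM (-0.33 ± 0.42, adjusted p = 0.999). The share of transcripts past the threshold was 0% at 30 and 750 mg/L and 0.0154% at 150 mg/L. Over all 20 libraries of the NQ experiment the level stayed between 18.7 and 69.2 CPM.

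Under MeNQ the transcript was highest at the top dose. The MeNQ controls held 26.02, 20.9, 11.6 and 44.5 CPM, a mean of 25.8 ± 13.8 (SD, n = 4). At 4225 mg/L the libraries held 186, 56.3, 57.4 and 94.6 CPM, a mean of 98.7 ± 61.1 (SD, n = 4). All 4 lay above all 4 controls, as did those of 2.84% of the 13496 transcripts tested. The change was 1.94 ± 0.58 (95% interval 0.72 to 3.16), with an unadjusted p of 0.00379 that missed the threshold after adjustment by edgeR (adjusted p = 0.203). DESeq2's Wald test gave an adjusted p of 0.030 for the same comparison. With lane as a term the change was 1.83 (adjusted p = 0.222 by edgeR). By edgeR 0.393% of transcripts passed there.

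The lower MeNQ doses overlapped the controls. At 34 mg/L libraries A to D held 66.2, 51.9, 16.0 and 35.6 CPM (0.72 ± 0.56, adjusted p = 1). At 170 mg/L the libraries lay close together at 16.8, 15.2, 13.6 and 14.3 CPM (-0.78 ± 0.57, adjusted p = 0.742). At 851 mg/L library A stood at 59.3 CPM and the others at 11.4, 11.1 and 14.5 (-0.09 ± 0.57, adjusted p = 0.984). Without library A that change was -1.06, and it was above 0, up to 0.31, without control D or without B, C or D of that dose. The share of transcripts past the threshold was 0% at 34, 0.156% at 170 and 0.437% at 851 mg/L. Among the 4 MeNQ doses the top one alone had no overlap with the control.

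NQ and MeNQ differ by a methyl group and were compared at their 4 matched concentrations, each response taken against its own control in 1 model of 40 libraries. At 36 mmol/L the MeNQ response was higher than that of NQ by 2.07 ± 0.72 (95% interval 0.61 to 3.54), an estimated 4.21-fold. This difference did not pass after adjustment (unadjusted p = 0.00704, adjusted p = 0.191), and 0.626% of 14068 transcripts did. At 0.3 mmol/L it was 1.28 ± 0.72 (95% interval -0.18 to 2.75; adjusted p = 0.696), where 0.0213% passed. At 1.4 mmol/L it was -0.54 ± 0.72 (-2.002 to 0.92; adjusted p = 0.939; 0.128% passed) and at 7.2 mmol/L 0.23 ± 0.72 (-1.23 to 1.69; adjusted p = 0.998; 0.114% passed). Without MeNQ 851 mg/L A the value at 7.2 mmol/L was -0.72, and without MeNQ control C it was -0.01. The intervals at the 3 lower concentrations are wide and do not show that the compounds act alike. Each compound was given in its own experiment, with its own cohort of tadpoles and its own lanes. Compound and experiment therefore cannot be told apart in these differences, and the intervals cover the spread between libraries only.

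**Figure D2:**
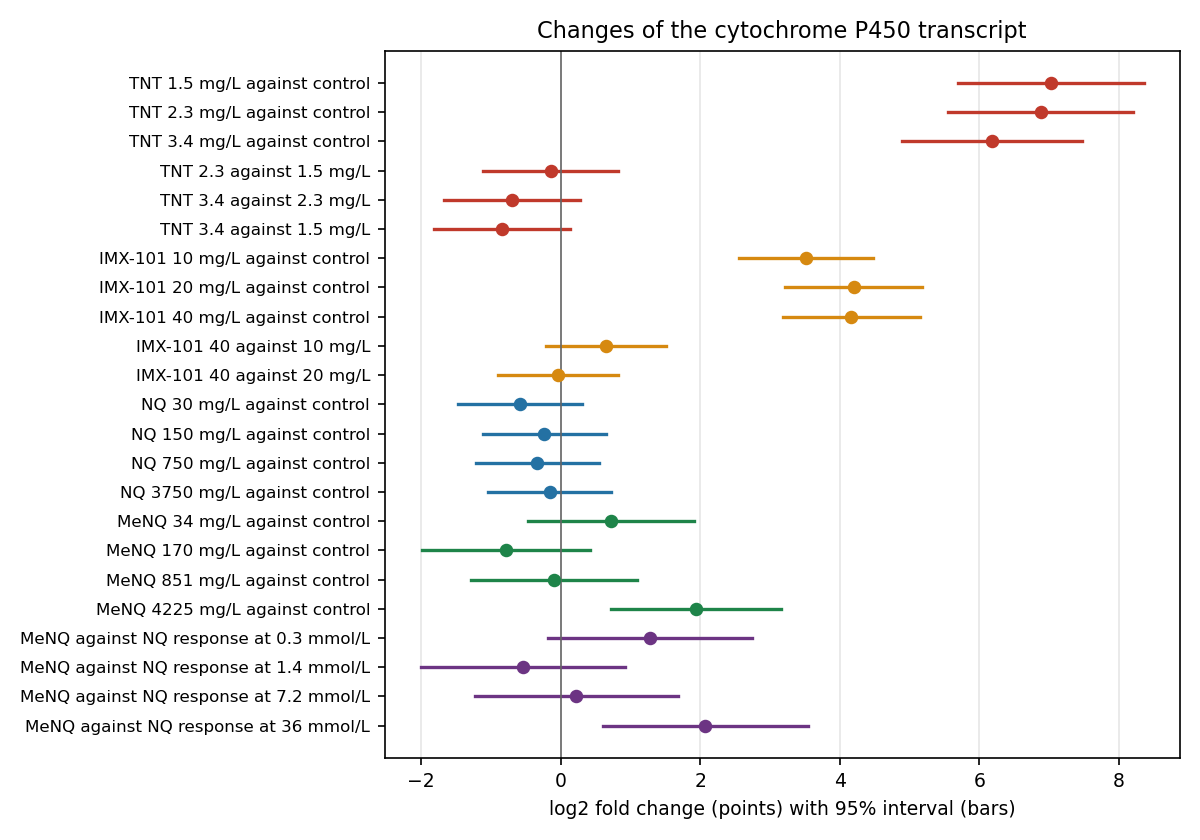
Log2 changes of the cytochrome P450 transcript, with points for the estimate and bars for the 95% interval, for each dose against its control, for steps between doses, and for the MeNQ response minus the NQ response at matched concentrations. Against their controls the TNT points lie at 6.18 to 7.02 and the IMX-101 points at 3.51 to 4.199. The intervals drawn for these are description and carry no test, because the transcript was picked for its rise under TNT. All 4 NQ intervals cross 0 and the MeNQ interval at 4225 mg/L does not, but that change missed the threshold by edgeR (adjusted p = 0.203).

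Unexposed tadpoles did not share 1 level. The control means were 5.56 CPM in the TNT experiment, 19.5 in IMX-101, 25.8 in MeNQ and 45.1 in NQ, a spread of 3.01 on the log2 scale between the highest and the lowest. The 4 groups differed by the edgeR test (adjusted p = 0.000185), as did 29.5% of the 14893 transcripts tested. The TNT control was the lowest of the 4, and choosing a transcript for a steep rise under TNT favours a low TNT control. This p therefore rests in part on values that entered the choice. Each experiment had its own cohort of tadpoles and mostly its own lanes, and these cannot be told apart where lanes were not shared. Lane 3 held 1 control library each of NQ and TNT. The runs of NQ control C stood at 34.5 and 38.9 CPM of the run total, and those of TNT control C at 6.17 and 4.67 CPM. The part of the lane in the control levels was not tested. With these control means a fold change against the TNT control starts from a lower level than one against any other control. The exposed levels differed less than the folds did.

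In the order of the 18 group means, the 3 TNT doses came at the top, then IMX-101 at 20, 40 and 10 mg/L, then MeNQ at 4225 mg/L, and the TNT control at the bottom. The 10 groups in between, all of NQ or MeNQ apart from the IMX-101 control, had means from 15.0 to 45.1 CPM. Of 17 neighbouring pairs in this order 16 had ranges that overlapped, and these pairs were not tested. IMX-101 at 10 mg/L and MeNQ at 4225 mg/L overlapped through MeNQ library A at 186 CPM alone. The pair without overlap was MeNQ at 170 mg/L and the TNT control, the last in the order.

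In the exposed TNT groups libraries of separate beakers differed by more than repeat runs of 1 library. A difference between libraries holds beaker and library preparation together, and a range over 4 libraries is not the same measure as a ratio of 2 runs. The highest library was 3.44 times the lowest at 1.5 mg/L TNT, 3.53 times at 2.3 and 3.52 times at 3.4 mg/L. In the 15 exposed TNT or IMX-101 libraries that were sequenced in 2 runs, the larger run was at most 1.09 times the smaller. In the 2 tightest groups the libraries were closer. The highest was 1.24 times the lowest at MeNQ 170 mg/L and 1.26 times in the TNT control. The runs of TNT control C differed by 1.32 times. Over all 61 libraries with 2 runs above 0, the median ratio was 1.07, and 8 exceeded 1.2. The widest was 2.19, in MeNQ 851 mg/L B, with 5.66 and 12.4 CPM of the run total. In MeNQ 851 mg/L C the smaller run had no counts of the transcript in a total of 0.441 M, which allows a level of up to 6.80 CPM, and the other run gave 11.2 CPM.

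**Figure D3:**
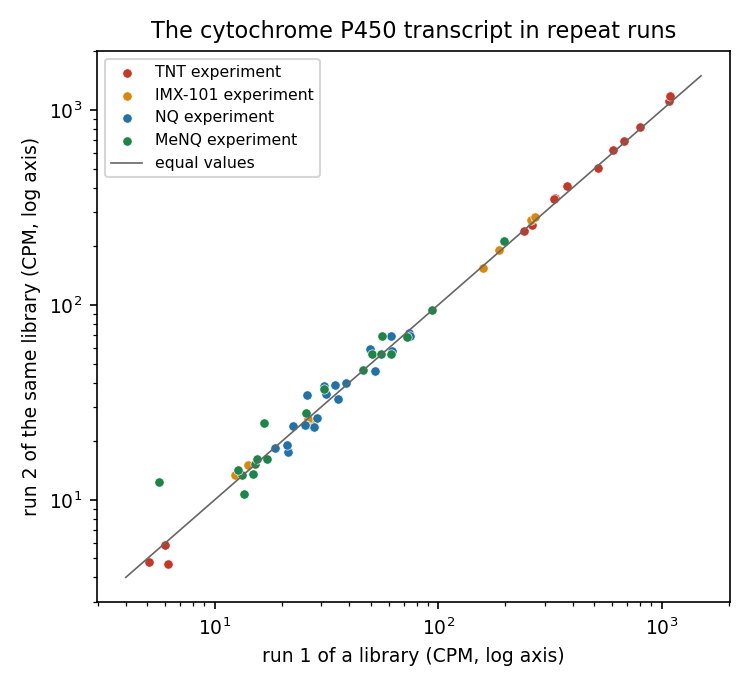
Level of the cytochrome P450 transcript in run 1 and run 2 of the 61 libraries sequenced in 2 runs with counts in both, in CPM of the run total on log axes, with a line of equal values. Points above 100 CPM lie on or next to the line, and the point farthest from it is MeNQ 851 mg/L B at 5.66 and 12.4 CPM.

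The spread between libraries differed between groups. In the TNT control the SD of the log2 level was 0.16 for the transcript, against a median of 0.53 over 14893 transcripts, and 19.8% of transcripts had a lower SD. Within the 3 exposed TNT groups it was 0.79 against a median of 0.57, with 58.5% below. Over all 18 groups it was 0.70 against a median of 0.82, with 46.1% below.

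The other rows named as a cytochrome P450 were described in the same way. Of 31 such rows 21 passed the filter on low counts under TNT, 20 without the transcript itself. At 3.4 mg/L TNT 7 of these 20 rose and 0 fell by edgeR, beside 6.37% of all transcripts tested that rose and 5.61% that fell. At an unadjusted p under 0.05, 10 were higher and 1 was lower. DESeq2 called 10 upward and 1 downward with the transcript counted. Here and in the lists below DESeq2 ran without the filter on low counts, so its calls can include rows that edgeR did not test. The shares of all transcripts beside the counts are those of edgeR's adjusted test. No such share is given at an unadjusted p or by DESeq2. The median change of the 20 rows was 0.45, against 0.06 over all transcripts. These lists were drawn up with results of the same data known, so the counts are descriptions.

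Among those that rose, 3A29-like, named for a family that oxidises many drugs and steroids in mammals, went from 378 ± 36.8 to 1348 ± 143 CPM (SD, n = 4), a change of 1.84 ± 0.10 (adjusted p = 8.87e-08). The 4B1-like row named from Xenopus tropicalis went from 225 to 895 CPM (1.99 ± 0.12, adjusted p = 2.32e-07). CYP8B1, a sterol hydroxylase of bile acid synthesis listed as family 8 subfamily B member 1, rose by 0.87 ± 0.13 (adjusted p = 0.000366). The 2K1-like row named from Xenopus tropicalis rose by 2.19 ± 0.33 (adjusted p = 0.000407), and family 2 subfamily J member 2, a fatty acid epoxygenase in mammals, by 0.70 ± 0.10 (adjusted p = 0.000428). In each of these rows the change was under a log2 of 3, while that described for the transcript was 6.18. Other rows named as 4B1 or 2K1 did not pass at 3.4 mg/L. Family 4 subfamily b polypeptide 1 differed by -0.32 ± 0.12 (adjusted p = 0.123) and family 4 subfamily B member 1 by -0.23 ± 0.38 (adjusted p = 0.845). The 2K1-like row named from Xenopus laevis differed by -0.16 ± 0.11 (adjusted p = 0.512).

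The 5 named relatives had the smallest adjusted p at 3.4 mg/L, a rule that favours rows differing most from the control at that dose. Of these, 4 had means that rank upward with TNT dose, and CYP8B1 had means that rank downward, as those of the transcript do. Rows outside the rule went both ways. At the rising doses family 4 subfamily b polypeptide 1 had changes of 0.27, 0.18 and -0.32. Family 4 subfamily B member 1 had 0.67, 0.57 and -0.23, and neither passed at any dose. Cytochrome P450 2H2 had 0.62 (short of the threshold), 1.18 and 1.56. The 2G1-like isoform X1 row of Xenopus laevis had 1.38 (short of the threshold), 2.42 and 2.22, highest at the middle dose. It passed at 2.3 and 3.4 mg/L (adjusted p = 0.00194 and 0.00184 by edgeR). CYP8B1 stood at 36.2 CPM in the control and at 90.3, 85.7 and 66.5 CPM at the rising doses, changes of 1.31 ± 0.13, 1.24 ± 0.13 and 0.87 ± 0.13. Against the control the 3A29-like row stood 1.34 ± 0.10 higher at 1.5 mg/L, 1.69 ± 0.10 at 2.3 and 1.84 ± 0.10 at 3.4 mg/L on the log2 scale. The 4B1-like row stood 1.10 ± 0.12, 1.82 ± 0.12 and 1.99 ± 0.12 higher at the same doses. The 2K1-like row stood 0.89 ± 0.32 higher at 1.5 mg/L, which missed the threshold (adjusted p = 0.210), and 1.38 ± 0.32 and 2.19 ± 0.33 at the next doses. Family 2 subfamily J member 2 stood 0.30 ± 0.10 higher at 1.5 mg/L, which missed the threshold (adjusted p = 0.205), and 0.54 ± 0.10 and 0.70 ± 0.10 at the next doses. The difference between these courses and that of the transcript was not tested. The row named as family 1 subfamily D polypeptide 1, singled out after its values were seen, stood at 0 to 18.6 CPM in the TNT controls and at 23.5 to 45.6 CPM at 3.4 mg/L, a change of 2.50 ± 0.86 that missed the threshold (adjusted p = 0.0812).

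Under IMX-101 at 40 mg/L 11 of the 20 other rows rose and 0 fell by edgeR (11 and 0 at an unadjusted p under 0.05, and 12 and 0 by DESeq2 with the transcript counted), beside 3.84% of all transcripts that rose and 3.68% that fell. Their median change was 0.49, against -0.05 over all transcripts. The 2K1-like row rose by 3.02 ± 0.29, from 10.5 to 85.0 CPM (adjusted p = 2.88e-05), cytochrome P450 2H2 by 2.45 ± 0.26, from 15.7 to 85.8 CPM (adjusted p = 5.54e-05), and the 4B1-like row by 1.74 ± 0.15 (adjusted p = 1.25e-05). The 2K1-like row named from Xenopus laevis rose by 0.91 ± 0.24 there (adjusted p = 0.0337). Family 4 subfamily b polypeptide 1 (0.06 ± 0.18, adjusted p = 0.935) and family 4 subfamily B member 1 (0.36 ± 0.45, adjusted p = 0.793) missed the threshold. At 10 mg/L, in the same run set as the control, 4 of 20 rose, beside 0.718% of all transcripts. Among these, 2K1-like of Xenopus tropicalis rose by 1.92 ± 0.28 (adjusted p = 0.00521) and 2H2 by 1.21 ± 0.25 (adjusted p = 0.0310).

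With NQ at 3750 mg/L 3 of the 20 other rows rose and 0 fell by edgeR (7 and 0 at an unadjusted p under 0.05), beside 1.39% of all transcripts that rose and 3.09% that fell. They were 2G1-like of Xenopus tropicalis (0.86 ± 0.18, adjusted p = 0.0139), 2C20-like of Xenopus laevis (0.42 ± 0.10, adjusted p = 0.0186) and 2C20-like of Xenopus tropicalis (1.07 ± 0.25, adjusted p = 0.0217). With only the control and 3750 mg/L in the fit 0 rows passed, 1 did without control C or without 3750 mg/L A, and DESeq2 called 5. With MeNQ at 4225 mg/L none of the 20 passed by edgeR, beside 0.393% of all transcripts. At an unadjusted p under 0.05, 4 were higher and 2 lower, with no such share to set beside them. DESeq2 called 2 rows upward, the transcript among them. The 4B1-like row stood at 511 CPM there against 350 in the control (0.54 ± 0.19, adjusted p = 0.305), and family 26 subfamily B, which breaks down retinoic acid, at 42.6 against 30.3 CPM (0.49 ± 0.13, adjusted p = 0.142). The 2C20-like row of Xenopus laevis stood at 477 against 386 CPM (0.31 ± 0.10, adjusted p = 0.271).

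**Figure D4:**
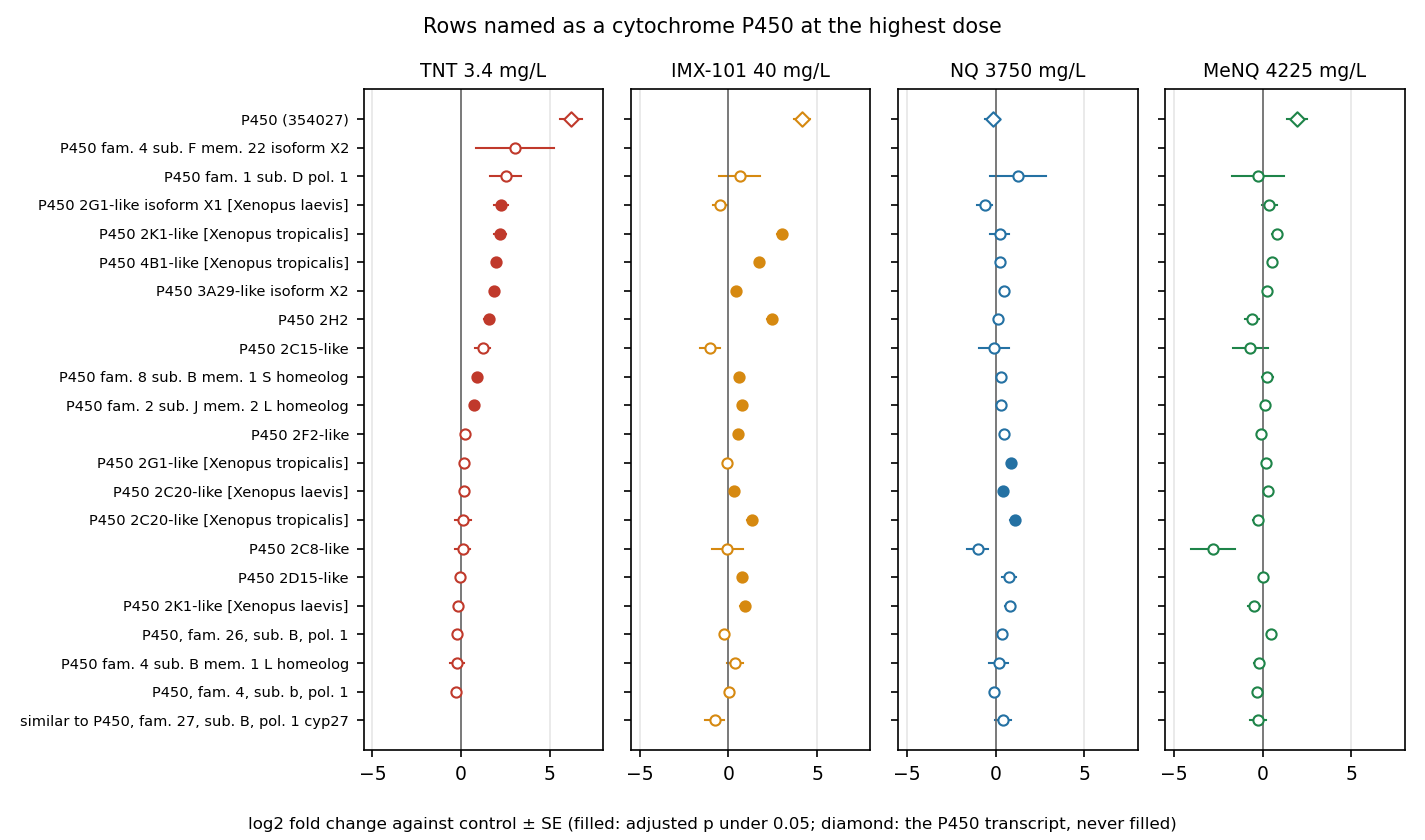
Log2 changes ± SE at the highest dose of each exposure for rows named as a cytochrome P450 that passed the filter, ordered by their change under TNT, with filled points for an adjusted p under 0.05 and a diamond for the cytochrome P450 transcript with no family name. The diamond is at 6.18 under TNT, 4.16 under IMX-101, -0.16 under NQ and 1.94 under MeNQ, and 7, 11, 3 and 0 other rows are filled.

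P450 enzymes draw electrons and haem from other proteins. Of 14 rows for redox partners and haem supply 8 were tested under TNT. None passed at 3.4 mg/L by edgeR, beside 12% of all transcripts, 2 were higher at an unadjusted p under 0.05, and DESeq2 called 1. The median change of the 8 was 1.10, but many of these rows sat near the floor, with libraries at 0 CPM. NADPH-cytochrome P450 reductase-like, the main electron donor, named here for that role and outside the rule for named rows, stood at 13.9 CPM against 5.11 in the control (1.39 ± 1.61, adjusted p = 0.742), and progesterone receptor membrane component 1, a haem-binding partner, at 245 against 215 CPM (0.18 ± 0.09, adjusted p = 0.229). Cytochrome b5 reductase 4 differed by 1.49 ± 0.64 (adjusted p = 0.179). NADH-cytochrome b5 reductase 2 and hydroxymethylbilane synthase, an enzyme of haem synthesis, missed the threshold as well (adjusted p = 0.139 and 0.283). Their changes of 6.29 ± 2.42 and 6.53 ± 3.30 came from 0 CPM in every control and means of 0.995 and 1.16 CPM. The progesterone receptor component passed at 2.3 mg/L (0.37 ± 0.09, adjusted p = 0.0242), where 5.39% of all transcripts did. Under IMX-101 at 40 mg/L 1 of 7 passed, beside 7.51% of all transcripts. It was adrenodoxin, the electron carrier of mitochondrial P450s, which fell, as did 3.68% of all transcripts. Its controls ran from 0.21 to 10.7 CPM and its exposed libraries from 0 to 0.14 CPM. No row of the list passed with the letter as a block or with only these 2 groups in the fit. None did when any 1 of 7 of the 8 libraries was left out, while 2 did without control A. DESeq2 called 3, of which 2 were upward and 1 downward. At an unadjusted p under 0.05 by edgeR, 2 were higher and 2 lower. With NQ at 3750 mg/L 0 of 7 passed by edgeR (0 at an unadjusted p under 0.05, 0 by DESeq2), beside 4.48% of all transcripts. With MeNQ at 4225 mg/L 0 of 9 passed (1 and 0), beside 0.393%.

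Receptors and regulators that act on P450 genes in vertebrates were the third list. Of 11 receptor rows 6 were tested under TNT, and at 3.4 mg/L 2 rose and 1 fell, beside 6.37% and 5.61% of all transcripts. The aryl hydrocarbon receptor stood at 169 CPM against 141 in the control, a rise of 0.26 ± 0.08 (adjusted p = 0.0486), just under the threshold. At 1.5 and 2.3 mg/L it stood 0.20 ± 0.08 and 0.21 ± 0.08 higher and missed the threshold (adjusted p = 0.263 and 0.175). Peroxisome proliferator-activated receptor gamma, a regulator of fat storage, rose by 0.65 ± 0.09 (adjusted p = 0.000283). Hepatocyte nuclear factor 4-gamma-like fell by 0.93 ± 0.19, a loss from 63.4 to 33.5 CPM (adjusted p = 0.00495). RXR-alpha, the retinoid receptor that pairs with many of the others, differed by 0.56 ± 0.96 (adjusted p = 0.851). Nuclear receptor subfamily 1 group I member 3, outside the rule for named rows, differed by 0.02 ± 0.15 (adjusted p = 0.971). Under IMX-101 at 40 mg/L the gamma receptor alone of 7 passed (0.85 ± 0.14, adjusted p = 0.00141), beside 7.51% of all transcripts, and the aryl hydrocarbon receptor stood 0.11 ± 0.08 higher (adjusted p = 0.583). With NQ at 3750 mg/L 0 of 8 passed by edgeR, beside 4.48% of all transcripts, 2 were higher at an unadjusted p under 0.05 and DESeq2 called 0, and the same 3 counts were found with MeNQ at 4225 mg/L, beside 0.393% of all transcripts. With the letter as a block, or without control C, 1 passed under NQ.

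Some transcripts followed the same order of group levels. Likeness was the Pearson r over the 18 group means of log2 CPM among 14892 other transcripts. It is a description, because the points share their controls and sequencing, and because the TNT and IMX-101 groups stand far from the rest. The median r was -0.016 and the 95th percentile 0.475, and 3 transcripts reached 0.9. The highest, 0.964, belonged to Rana_pipiens_Transcript_332846, listed as a hypothetical protein of Xenopus tropicalis and singled out after its values were seen. Its means were 10.6 CPM in the TNT control and 33.6, 31.3 and 25.01 CPM at the rising TNT doses, so it too was highest at the lowest dose, and its step from 1.5 to 3.4 mg/L was -0.41 ± 0.23 (adjusted p = 0.448).

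The 5 most alike transcripts with a protein name were apoptosis-inducing factor 2-like (r = 0.9203), an oxidoreductase that guards membrane lipids, and the cystine/glutamate transporter (0.902), a supplier of cystine to glutathione synthesis. C-reactive protein-like (0.859), transient receptor potential channel V member 5-like (0.858), a calcium channel, and carbonyl reductase 1-like (0.852), an NADPH-dependent reductase of carbonyl compounds, came next. The row of the calcium channel was near the floor, with group means from 0.666 CPM in the MeNQ control to 5.08 CPM at 3.4 mg/L TNT. Ranked by Spearman's rho, 4 of these 5 were again among the first 5, and over the 14 groups outside the TNT experiment 2 of them were.

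Under TNT the leading named transcripts were highest at the top dose. Apoptosis-inducing factor 2-like had group means of 55.4, 509, 739 and 867 CPM from control to 3.4 mg/L, and rose by 0.79 ± 0.12 from 1.5 to 3.4 mg/L (adjusted p = 0.00137). Over that step the transporter of cystine rose by 1.68 ± 0.21 (adjusted p = 0.000614). Both rows were picked for their likeness over means that include these TNT groups, so these edgeR p-values are description. From 1.5 to 3.4 mg/L 6.38% of all transcripts passed. The transcript differed by -0.84 ± 0.45 there, as given above, and the difference between these steps was not tested.

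**Figure D5:**
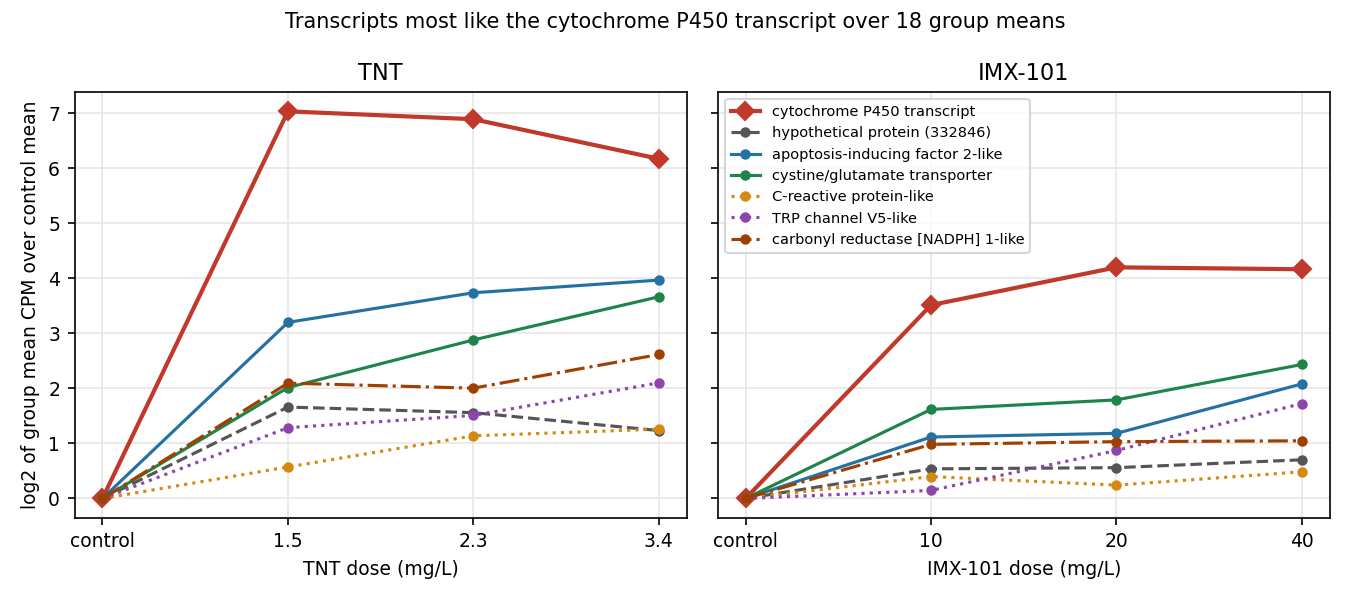
Log2 of the group mean CPM over the control mean by dose (mg/L) under TNT and IMX-101, for the cytochrome P450 transcript, the 5 most alike named transcripts and the most alike of all, listed as a hypothetical protein. Under TNT the transcript and the hypothetical protein are highest at 1.5 mg/L, while apoptosis-inducing factor 2-like and the cystine/glutamate transporter are highest at 3.4 mg/L.

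Within groups other transcripts went along with it. The correlation of deviations from the group means over 72 libraries was highest for DNA replication licensing factor mcm2-like (0.688), a subunit of the replicative helicase, followed by cleft lip and palate transmembrane protein 1 (0.652) and elac1 (0.647), a tRNA-processing enzyme. The 95th percentile over all transcripts was 0.358. For apoptosis-inducing factor 2-like it was 0.428 and for the hypothetical protein Rana_pipiens_Transcript_332846 it was 0.579. Over the 18 group means the r of mcm2-like was -0.338, that of cleft lip and palate transmembrane protein 1 was 0.105 and that of elac1 was -0.107.

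Whole tadpoles were sequenced, so a change in the number of cells of a type and a change in RNA per cell cannot be told apart. Summed marker rows showed RNA of all 6 tissues looked for. Between the TNT control and 3.4 mg/L the 10 liver rows together went from 2768 to 3673 CPM per library to 2223 to 2849 CPM, and 8 of them reached 1 CPM. The 6 intestine rows went from 3367 to 4737 CPM to 1738 to 2504 CPM, and the 3 haemoglobin rows from 1693 to 4339 CPM to 6383 to 12027 CPM. The 18 skin rows (14 of them at 1 CPM or more) went from 3541 to 4629 CPM to 2383 to 2879 CPM, the 18 muscle rows from 6189 to 7454 CPM to 5841 to 6681 CPM, and the 49 nervous system rows from 1448 to 1530 CPM to 1414 to 1467 CPM. The part of these sums in the level of the transcript was not tested.

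Under IMX-101 at 40 mg/L the liver sum was higher, at 6776 to 8379 CPM against 5069 to 5496 CPM in the control. The haemoglobin sum was lower, at 1986 to 4376 against 7547 to 11179 CPM. The muscle sum was higher, at 4718 to 5670 against 3452 to 4466 CPM. The nervous system sum was lower, at 1647 to 1810 against 1959 to 2057 CPM. The skin and intestine sums overlapped those of the control. Their part in the level of the transcript was not tested. Under MeNQ at 4225 mg/L the liver sum was 5926 to 7448 CPM against 3808 to 6142 in the control, and the haemoglobin sum 14601 to 17864 against 7014 to 14539 CPM. The muscle, intestine, skin and nervous system sums overlapped those of the MeNQ control. Their part in the level there was not tested either.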

How the data were processed

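Per the submitters' processing notes, bcl2fastq 1.8.4 and Salmon were used; the deposited values are read as Salmon's estimated counts of each transcript, since they need not be whole. For Salmon, a version and a transcriptome were not given in the sources used here. Libraries were stranded and poly-A selected, per the labels' protocols. The deposited E-value column, a score of each row's protein match per the file headers, was read but not tested. In the header of the table of 134 runs, 1 run of NQ control A is named as NQ 3750 mg/L in 1 of its lines; the deposited value of that library matches the mean of the runs given to it here. The runs of a library (2 in 62 libraries, 1 in 10) were summed, rounded and fitted with edgeR 4.0.16 in R 4.3.3, with 1 model per exposure, filterByExpr defaults and TMM; DESeq2 1.42.0 was an alternative. The fit was tested on simulated data. Doses and groups follow the labels, which differ from the series text for 3 doses.

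The members, lists and rules for named rows (relatives with the smallest adjusted p, and the most alike transcripts) were chosen with earlier results of these data known. Likeness used log2 CPM scaled over 72 libraries. No sequence of the transcript was used here. Poisson intervals and the limit for a count of 0 cover counting error only. Libraries are pools from separate beakers of 1 cohort per experiment, so p-values measure the spread between such libraries. Alternatives were DESeq2 size factors, its Wald test, no filter, the deposited values per library, sums by protein name, only the groups compared, the letter as a block, and each library left out; added after seeing the data were lane as a term and 40 against 20 mg/L IMX-101.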

Additional observations from a re-analysis of the deposited data

Results flagged for a closer look

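Of the 18 groups of 4 libraries, 1 had a library that stood apart in the level of the cytochrome P450 transcript by Dixon's criterion. Library A at 851 mg/L MeNQ held 59.32 CPM, and the nearest of the others held 14.54 CPM, a gap of 0.928 of the group's range against a critical value of 0.829. Chance alone gives about 1 such group in 20, so a single one among 18 is no pattern. Both runs of that library were high, at 61.7 and 55.8 CPM of the run total.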

How the results depend on the processing

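Of 274 comparisons of a result with an alternative setting 265 kept their direction and side of the threshold, or stayed within 1.5 times for a count. DESeq2's Wald test put MeNQ at 4225 mg/L past the threshold (1.93, adjusted p = 0.030), called 3 redox rows under IMX-101 at 40 mg/L and 1 under TNT at 3.4 mg/L in place of 1 and 0, and called 5 P450 rows under NQ and 2 under MeNQ in place of 3 and 0. With only the groups compared, 0 redox rows passed under IMX-101 and 0 P450 rows under NQ. The causes were not tested. Without the TNT groups the likeness of C-reactive protein-like was 0.718 and that of carbonyl reductase 1-like 0.733.

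Over all transcripts, libraries of the same letter did not deviate together, with correlations of -0.0664 to 0.0852. This was not checked for the cytochrome P450 transcript alone. With the letter as a replicate block the TNT changes were 7.00, 6.85 and 6.18, that of IMX-101 at 40 mg/L was 4.10, and that of MeNQ at 4225 mg/L was 1.83 (adjusted p = 0.0826). The block left 0 redox rows under IMX-101 and gave 1 receptor row under NQ, and changed no other call.

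With 1 library left out, 304 of 328 comparisons were unchanged. The TNT changes ran from 6.68 to 7.24, 6.42 to 7.08 and 5.64 to 6.38 at the rising doses, those of IMX-101 from 3.36 to 3.66, 3.89 to 4.44 and 3.93 to 4.39, and that of MeNQ at 4225 mg/L from 1.42 to 2.34 (adjusted p 0.123 to 0.445 by edgeR). The sign was not fixed for TNT 2.3 against 1.5 mg/L (-0.59 to 0.18), IMX-101 40 against 20 mg/L (-0.28 to 0.27), NQ at 3750 mg/L (-0.39 to 0.016), MeNQ at 851 mg/L (-1.06 to 0.31) and MeNQ against NQ at 7.2 mmol/L (-0.72 to 0.75). P450 rows called under NQ ran from 1 to 4, redox rows under IMX-101 from 0 to 2, and receptor rows under NQ from 0 to 1. Depth limits the TNT control most, where library A rests on 9 counts. DESeq2 was not run for the 4 control groups.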
